A study of Mus musculus with 24 samples.

Results

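MiR-10a and miR-10b are the 2 members of the mouse miR-10 family, and each was read by 1 probe of a miRNA array, named mmu-miR-10a and mmu-miR-10b. They were chosen by name, without their passenger strands, and make up 2 of the 558 mouse miRNA probes on the array. The arrays profiled 3 sister lines of a mouse mammary carcinoma: 4T1, which the labels call highly metastatic, 4TO7, called systemically invasive, and 67NR, called nonmetastatic. Each line was grown for 6 days in 3D organotypic culture in a rigid or a compliant microenvironment. Cultures received either TGF-beta, a cytokine known to induce epithelial-mesenchymal transition in carcinoma cells, or a compound that inhibits its type I receptor, the condition that the labels name basal. Every group had 1 of these agents, so a response to TGF-beta and one of opposite sign to the inhibitor cannot be told apart. The 12 groups of line, microenvironment and treatment had 2 arrays each, named set 1 and set 2, on 5 slides. Each line stands for its stage of metastasis as a single established cell line. The sources used here give neither the doses nor the materials of the microenvironments. They also do not say whether the 2 arrays of a group were separate cultures, and the p-values therefore cover the array-to-array spread alone.

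The miR-10 genes lie within Hox clusters, the gene arrays that pattern the body axis, and the miRNAs are known to act on Hox transcripts among other targets. A miRNA pairs with its targets mainly through its seed, the bases just after its 5′ end. In human breast cancer cells miR-10b is known as a miRNA induced by the transcription factor Twist that represses HOXD10 and promotes invasion, and silencing it in the 4T1 mouse model was reported to reduce metastasis. MiR-10a has been described mainly in development, blood cells and endothelium.

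The mature sequences are shown because the family members are nearly identical, which bears on what each probe can measure. They are RefSeq sequences (assembly GRCm38.p6), matched to the probes by miRNA name and written 5′ to 3′, with the seed (bases 2 to 8) in capitals. The array annotation itself names no genome build.
miR-10a: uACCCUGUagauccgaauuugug
miR-10b: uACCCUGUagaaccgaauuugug
The sequence of miR-10a lies on the plus strand at chr11:96317186-96317208, within the annotated span of Hoxb3. That of miR-10b lies on the plus strand at chr2:74726074-74726096, within the annotated spans of Hoxd3 and Hoxd4. Both are 23 bases long and they differ at 1 base, U12A (the base of miR-10a, the position counted from 1 at the 5′ end, then the base of miR-10b), which lies outside the seed. Of 1679 mature mouse miRNA names in the RefSeq table, these 2 hold the seed ACCCUGU. How far each probe also binds the other miRNA was not tested.

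The related miR-99/100 group has a different seed but shares runs of bases with both members, and is shown for that reason.
miR-99a: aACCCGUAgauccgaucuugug
miR-99b: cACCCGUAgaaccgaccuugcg
miR-100: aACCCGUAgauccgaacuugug
MiR-10a shares an unbroken run of 11 bases with miR-100 and of 10 bases with miR-99a, and miR-10b shares a run of 10 bases with miR-99b. Each run starts at base 7 of the miR-10 member and base 6 of the other miRNA, within the end of both seeds.

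A probe was called detected on an array where its deposited p-value for presence above background was under 0.05. Between 313 and 357 of the 558 miRNA probes were detected per array, 174 were detected on none, and tests were run on 365. Across the 365 tested probes, after quantile normalization, the 2 arrays of each group had r = 0.995 to 0.999. Levels below are quantile-normalized log2 intensities, differences are in log2 units with their standard error (SE) and 95% interval, and adjusted p-values come from limma with Benjamini-Hochberg adjustment over the 365 tested probes of each comparison. An adjusted p under 0.05 counts as passing. Levels of different probes are not compared with each other. As a check of the labelled carcinoma cells, 5 of 6 epithelial miRNA markers were detected in 4T1, 3 of 6 in 4TO7 and 2 of 6 in 67NR. MiR-200b, miR-200c and miR-429 were detected in 4T1 but on no array of the 4TO7 and 67NR lines. MiR-205, of the same list, was detected in 4TO7 but on no array of 4T1 and 67NR.

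MiR-10b was lower in the 4T1 and 4TO7 lines than in 67NR, and every array of those lines lay below every 67NR array. It was detected on 24 of 24 arrays, with a deposited relative intensity of 391 to 763 and a percent error of 2.90 to 7.08. In 4T1 its normalized log2 level had a lowest, median and highest value of 8.61, 8.77 and 8.89 over 8 arrays. In 4TO7 the 3 values were 8.79, 8.87 and 8.99, and in 67NR they were 9.13, 9.19 and 9.49. The 4T1 and 4TO7 ranges overlapped, and both ended below the start of the 67NR range. On the deposited scale, before normalization, the 4T1 arrays ran from 394 to 550 and the 4TO7 arrays from 391 to 513, against 541 to 763 in 67NR, so that 4T1 and 67NR overlapped slightly there.

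Group by group, the 2 arrays of 4T1 had miR-10b levels of 8.80 and 8.88 with TGF-beta in the rigid and 8.74 and 8.89 in the compliant microenvironment. With the inhibitor, 4T1 had 8.61 and 8.71 in the rigid and 8.61 and 8.86 in the compliant microenvironment. The inhibitor groups of 4T1 thus held the lowest arrays of the series.
In 4TO7 the levels with TGF-beta were 8.82 and 8.97 in the rigid and 8.79 and 8.99 in the compliant microenvironment. With the inhibitor they were 8.80 and 8.86 in the rigid microenvironment, and both arrays read 8.88 in the compliant one. Both TGF-beta groups of 4TO7 overlapped with both of its inhibitor groups, whose own ranges lay just apart.
In 67NR the levels with TGF-beta were 9.19 and 9.23 in the rigid and 9.19 and 9.49 in the compliant microenvironment. With the inhibitor they were 9.13 and 9.16 in the rigid and 9.15 and 9.43 in the compliant microenvironment. The 2 arrays furthest above the rest of the series were both from compliant 67NR cultures of set 1, 1 with TGF-beta and 1 with the inhibitor.

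Ordered by their means, the groups ran from rigid 4T1 with inhibitor (8.66), compliant 4T1 with inhibitor (8.74) and compliant 4T1 with TGF-beta (8.81) to rigid 4TO7 with inhibitor (8.83) and rigid 4T1 with TGF-beta (8.84). The compliant 4TO7 groups with inhibitor (8.88) and TGF-beta (8.89) and the rigid 4TO7 group with TGF-beta (8.89) followed. The 4 groups of 67NR came last, from rigid with inhibitor (9.15), rigid with TGF-beta (9.21) and compliant with inhibitor (9.29) to compliant with TGF-beta (9.34). Neighbours in this order overlapped, apart from the step between 4TO7 and 67NR and the step between the 2 rigid 67NR groups.

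**Figure D1:**
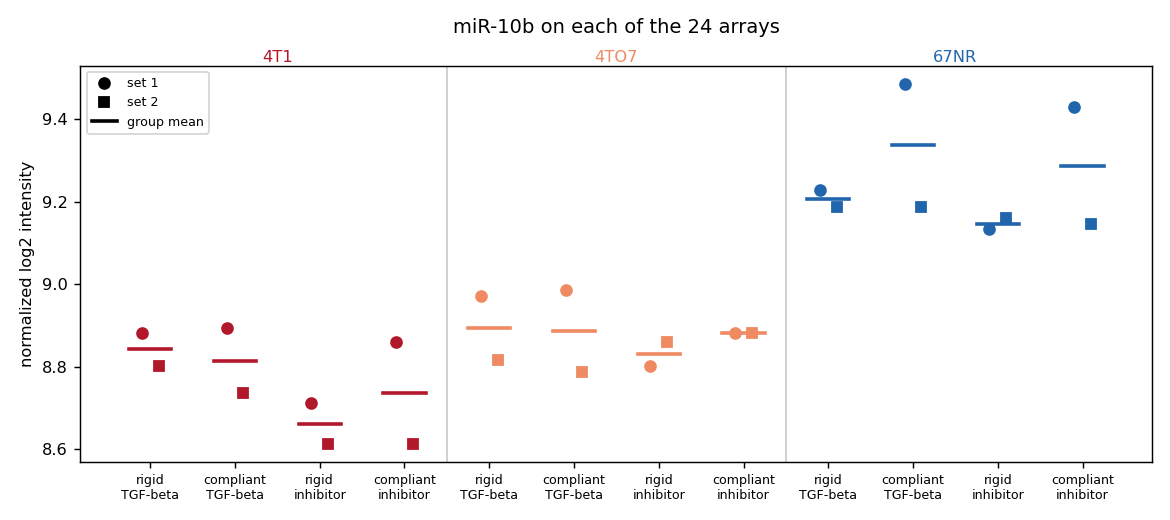
Normalized log2 intensity of miR-10b on each of the 24 arrays, by line and by microenvironment and treatment. Circles are set 1, squares are set 2 and bars are group means. All 16 arrays of 4T1 and 4TO7 lie at or below 8.99, under the lowest 67NR array at 9.13.

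MiR-10b averaged 8.76 ± 0.11 in 4T1 and 9.25 ± 0.14 in 67NR (SD, n = 8 arrays each), a difference of -0.48 ± 0.056 (SE, 95% interval -0.60 to -0.36, adjusted p = 5.75e-07 in limma). The level in 4T1 was thus 0.717 of that in 67NR. It averaged 8.87 ± 0.07 in 4TO7, -0.37 ± 0.056 from 67NR (95% interval -0.49 to -0.25, adjusted p = 1.40e-05 in limma), or 0.773 of the 67NR level. Both differences were larger than the spread between replicates, which for this probe was a residual SD of 0.119. Between 4T1 and 4TO7 the difference was -0.11 ± 0.056 (95% interval -0.23 to 0.01) and did not pass (adjusted p = 0.0994 in limma), in a comparison where 63% of tested probes passed. That difference passed under 6 of 10 alternative settings, among them median scaling (-0.18), with adjusted p-values of 0.000919 to 0.281 in limma over the 10.

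Most miRNAs differed between these lines, and most of those that did were lower in 4T1 and 4TO7. In the comparison of 4T1 with 67NR, 89.6% of tested probes passed in either direction and 58.9% passed as lower, and for 40.3% all 4T1 arrays lay below all 67NR arrays, as they did for miR-10b. In the comparison of 4TO7 with 67NR the shares were 86.8%, 57% and 32.3%. Passing as lower was therefore the commonest outcome in both. The median tested probe differed by -0.22 between 4T1 and 67NR and by -0.15 between 4TO7 and 67NR, and miR-10b lay -0.26 and -0.22 log2 units from that median. In all, 58 of the 365 tested probes had a more negative difference than miR-10b between 4T1 and 67NR, and 48 between 4TO7 and 67NR.

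The line difference of miR-10b had the same sign in all 4 combinations of microenvironment and treatment, from -0.55 to -0.36 between 4T1 and 67NR and from -0.45 to -0.31 between 4TO7 and 67NR. On slides that carried both lines in 1 condition, it was negative in 3 of 3 array pairs of 4T1 and 67NR (-0.82 to -0.29) and in 4 of 4 pairs of 4TO7 and 67NR (-0.37 to -0.26). These pairs are not independent. Both slide 3 pairs of 4T1 used the same 67NR array, as did both rigid inhibitor pairs of 4TO7 on slide 4. The -0.82 pair used the compliant 67NR inhibitor array of set 1, which read 9.43. Without both compliant 67NR arrays of set 1, a choice made after the values were seen, the differences were -0.41 and -0.30 and both passed (adjusted p = 3.14e-06 and 8.48e-05 in limma). Over 10 alternative settings the adjusted p was 6.26e-11 to 3.51e-05 for 4T1 and 6.77e-08 to 0.000749 for 4TO7, each against 67NR.

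The sums of several marker lists of other cell types ran in the same direction as miR-10b, and their part in the result was not tested. A sum includes probes that were not detected. Beside them stand the median differences of all tested probes, -0.22 between 4T1 and 67NR and -0.15 between 4TO7 and 67NR. The summed normalized intensity (linear scale) of the fibroblast and mesenchymal list was 6993 to 8821 in 4T1 and 8864 to 9599 in 4TO7, against 11900 to 14250 in 67NR, with 3, 3 and 4 of its 5 probes detected. Its 4 tested probes had median differences from 67NR of -0.97 in 4T1 and -0.72 in 4TO7, with 4 lower in each. The epithelial list ran the other way, with sums of 1564 to 1817 in 4T1, 412 to 564 in 4TO7 and 384 to 411 in 67NR. The muscle list summed to 445 to 540 in 4T1 and 498 to 575 in 4TO7, against 557 to 706 in 67NR, with 1, 1 and 2 of its 5 probes detected, and miR-206 was detected in 67NR alone. Its 2 tested probes had a median difference of -0.52 between 4T1 and 67NR (2 lower) and -0.36 between 4TO7 and 67NR (1 lower). The neural and liver list summed to 374 to 395 in 4T1 and 396 to 427 in 4TO7, against 421 to 459 in 67NR, with 2, 2 and 1 of its 3 probes detected. MiR-128 was detected in 4T1 and 4TO7 but not in 67NR. The list's 2 tested probes had median differences from 67NR of -0.14 in 4T1 (1 lower) and -0.07 in 4TO7 (1 higher, 1 lower). Both were less negative than the medians of all tested probes. Of 5 blood markers 1 was detected in each line, miR-451, with miR-144, miR-142-3p, miR-142-5p and miR-223 on no array. MiR-451 passed as lower in 4T1 (-0.28) and in 4TO7 (-0.17) than in 67NR, near the medians of all tested probes (-0.22 and -0.15). The blood list summed to 1262 to 1653 in 4T1 and 1430 to 1694 in 4TO7, against 1544 to 1872 in 67NR, and neither of the 2 endothelial markers was detected.

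MiR-10a was close to the background of the array throughout. It was detected on 22 of 24 arrays: 7 of 8 in 4T1, 7 of 8 in 4TO7 and 8 of 8 in 67NR. The 2 arrays without detection were compliant 4T1 with TGF-beta, set 1 (detection p-value 0.0691), and rigid 4TO7 with inhibitor, set 1 (detection p-value 0.0533). Its deposited relative intensity was 73.0 to 134 and its percent error 7.22 to 25.4, the highest error being that of the rigid 4TO7 array that lacked detection. The values below are differences of measured intensity, which at this level includes background.

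In 4T1 the normalized log2 level of miR-10a had a lowest, median and highest value of 6.25, 6.42 and 6.59 over 8 arrays. In 4TO7 the 3 values were 6.28, 6.49 and 6.72, and in 67NR they were 6.57, 6.63 and 6.92. The ranges of all 3 lines overlapped, that of 67NR lying highest.
Within 4T1 the 2 arrays read 6.28 and 6.46 (rigid) and 6.25 and 6.39 (compliant) with TGF-beta, against 6.39 and 6.46 (rigid) and 6.58 and 6.59 (compliant) with the inhibitor. Within 4TO7 they read 6.35 and 6.51 (rigid) and 6.28 and 6.54 (compliant) with TGF-beta, against 6.35 and 6.72 (rigid) and 6.46 and 6.59 (compliant) with the inhibitor. The 4TO7 groups overlapped with one another, whereas both compliant inhibitor arrays of 4T1 lay above its TGF-beta arrays.
Within 67NR they read 6.58 and 6.72 (rigid) and 6.61 and 6.77 (compliant) with TGF-beta, against 6.57 and 6.61 (rigid) and 6.64 and 6.92 (compliant) with the inhibitor. Ordered by mean from compliant 4T1 with TGF-beta (6.32) to compliant 67NR with inhibitor (6.78), every group overlapped with its neighbour, so no step in the order could be told apart from the spread. The 4 groups of 67NR held the 4 highest means (6.59 to 6.78), the lowest of them level with compliant 4T1 with inhibitor (6.59).

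**Figure D2:**
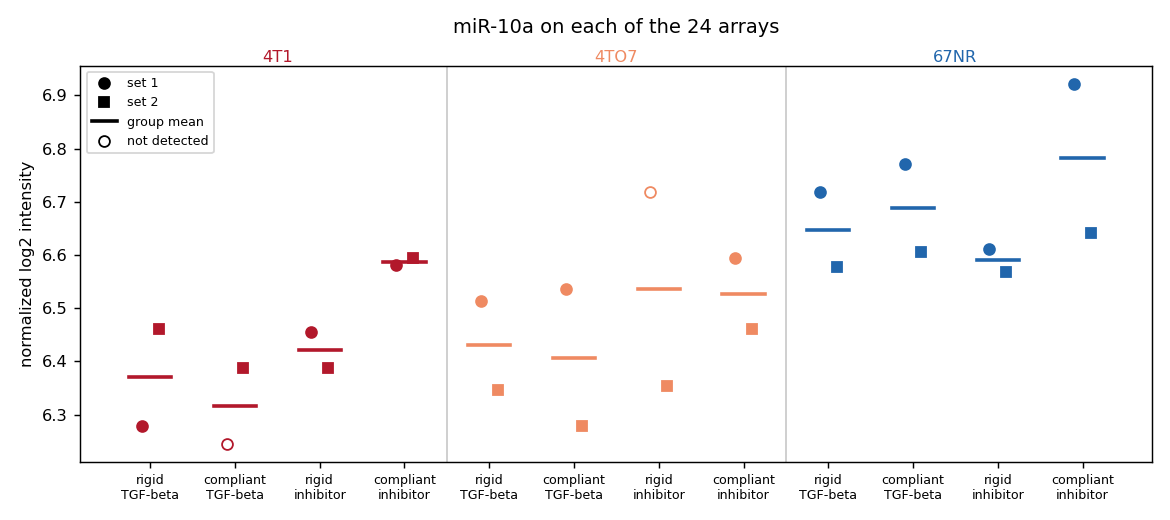
Normalized log2 intensity of miR-10a on each of the 24 arrays, by line and by microenvironment and treatment. Circles are set 1, squares set 2, open symbols arrays where the probe was not detected, and bars group means. The 3 lines overlap, with 67NR at 6.57 or above.

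MiR-10a averaged 6.42 ± 0.13 in 4T1 and 6.68 ± 0.12 in 67NR (SD, n = 8 arrays each), a difference of -0.25 ± 0.061 (SE, 95% interval -0.38 to -0.12, adjusted p = 0.00101 in limma). It averaged 6.48 ± 0.15 in 4TO7, -0.20 ± 0.061 from 67NR (95% interval -0.33 to -0.07, adjusted p = 0.00594 in limma). Both passed, and both were about as large as the difference of the median tested probe: miR-10a lay -0.036 from it between 4T1 and 67NR and -0.048 between 4TO7 and 67NR. In those comparisons 166 and 154 of the 365 tested probes had a more negative difference. The difference between 4T1 and 4TO7 was -0.05 (95% interval -0.18 to 0.08) and did not pass (adjusted p = 0.482 in limma).

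Probes without detection tended to read lower in 4T1 and 4TO7 after normalization, and whether background or scaling gave this was not tested. Over the 174 probes detected on no array, the median difference was -0.08 between 4T1 and 67NR (quartiles -0.17 and -0.0007). It was -0.06 between 4TO7 and 67NR (quartiles -0.12 and -0.003). Of these undetected probes, 22 had a difference at or below that of miR-10a in each comparison, and 2 had one at or below that of miR-10b. Within slides, miR-10a was lower in 3 of 3 array pairs of 4T1 against 67NR (-0.36 to -0.22) and in 3 of 4 pairs of 4TO7 against 67NR (-0.26 to 0.11). Some of these pairs shared a 67NR array, as for miR-10b. Without both compliant 67NR arrays of set 1 the differences were -0.20 (adjusted p = 0.0103 in limma) and -0.15 (adjusted p = 0.0476 in limma), the highest adjusted p-values over 10 alternative settings, whose lowest were 6.00e-06 and 0.00013.

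The passenger strands, the partner strands of the same hairpins that are mostly degraded, were not measurable. MiR-10a* was detected on 0 of 24 arrays and miR-10b* on 2 of 24, so neither was tested. Their intensities nevertheless differed between lines, by -0.25 (miR-10a*) and -0.19 (miR-10b*) between 4T1 and 67NR and by -0.19 and -0.17 between 4TO7 and 67NR. The difference of miR-10a* on arrays where it was not detected was thus about that of miR-10a.

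**Figure D3:**
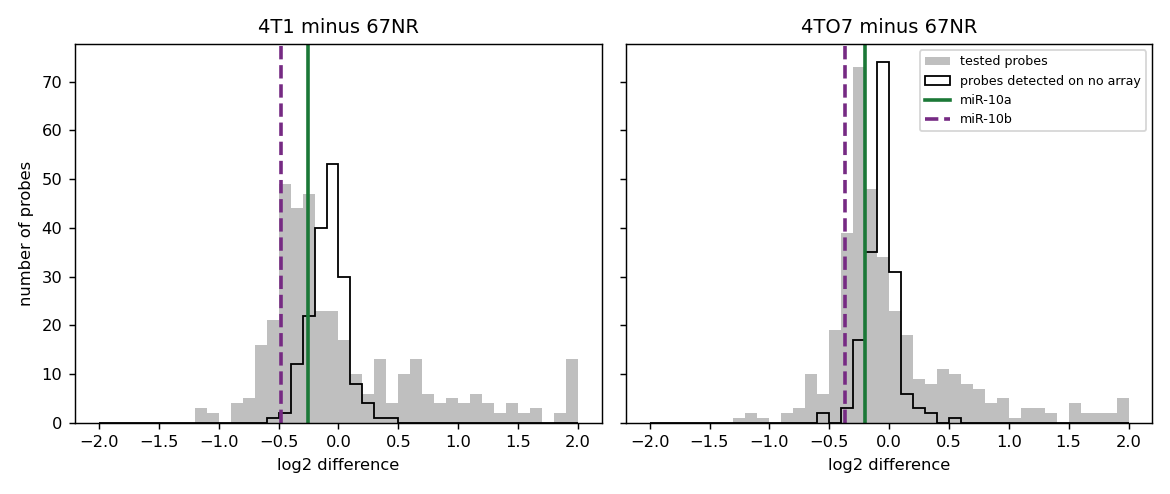
Histograms of the log2 difference of 4T1 minus 67NR (left) and of 4TO7 minus 67NR (right) for the 365 tested probes (grey) and the 174 probes detected on no array (black outline), with differences beyond the axis drawn in the end bins. The green line (miR-10a, -0.25 and -0.20) lies within the bulk of the tested probes, and the dashed purple line (miR-10b, -0.48 and -0.37) lies below the median of -0.22 and -0.15.

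The next question was whether the family responds to TGF-beta. Neither member passed the comparison of TGF-beta with the inhibitor over all lines, in which 39.5% of tested probes passed. MiR-10b had a lowest, median and highest level of 8.74, 8.93 and 9.49 over 12 TGF-beta arrays, against 8.61, 8.87 and 9.43 over 12 inhibitor arrays, with near-complete overlap. The difference was 0.07 ± 0.046 (95% interval -0.03 to 0.17, adjusted p = 0.224 in limma). The interval leaves room for a rise of up to 0.17 log2 units. MiR-10a had levels of 6.25, 6.49 and 6.77 with TGF-beta, against 6.35, 6.59 and 6.92 with the inhibitor, a difference of -0.10 ± 0.050 (95% interval -0.20 to 0.01, adjusted p = 0.133 in limma).

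Within single lines neither member passed. The TGF-beta difference of miR-10b was 0.13 in 4T1 (95% interval -0.04 to 0.30, adjusted p = 0.220 in limma), 0.03 in 4TO7 (adjusted p = 0.815) and 0.05 in 67NR (adjusted p = 0.736). That of miR-10a was -0.16 in 4T1 (95% interval -0.34 to 0.02, adjusted p = 0.162 in limma), -0.11 in 4TO7 (adjusted p = 0.376) and -0.02 in 67NR (adjusted p = 0.948). The members' differences thus had opposite signs in each line, but in 67NR they shared a sign under all 3 other scalings: 0.060 for miR-10b and 0.057 for miR-10a under median scaling over detected probes, 0.063 and 0.060 in the authors' deposited table, and -0.016 and -0.020 under median scaling. The share of tested probes that passed was 31.8% in 4T1, 21.4% in 4TO7 and 11% in 67NR. Across the 6 combinations of line and microenvironment, miR-10b was higher with TGF-beta in 6 of 6, by 0.005 to 0.18, and miR-10a was lower in 5 of 6 (-0.27 to 0.06). These are signs of group means, not passing differences. Where a slide carried both treatments in 1 microenvironment, miR-10b was higher with TGF-beta in 2 of 2 array pairs of 67NR but in only 1 of 3 of 4TO7 (-0.094 to 0.014). MiR-10a was lower in 2 of 2 pairs of 67NR and 3 of 3 of 4TO7. The test of whether the TGF-beta difference varied between lines, an F test that 14.5% of tested probes passed, gave an adjusted p of 0.811 for miR-10b and 0.668 for miR-10a in limma. Between the rigid and the compliant microenvironment, the TGF-beta difference of miR-10b differed by 0.06 (adjusted p = 0.952) and that of miR-10a by 0.13 (adjusted p = 0.916 in limma). In that comparison 0% of probes passed in limma, with 22 of 365 at an unadjusted p under 0.05.

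A few settings changed the calls over all lines. In the authors' deposited table, whose values use another scaling between arrays, the miR-10b difference was 0.10 and passed (adjusted p = 0.0261 in limma). With a block for each set of each line, the miR-10a difference passed over all lines (-0.10, adjusted p = 0.0158 in limma) and in 4T1 (-0.16, adjusted p = 0.0233). Over 10 alternative settings the adjusted p over all lines was 0.0158 to 0.357 for miR-10a and 0.0261 to 0.452 for miR-10b, and in 4T1 it was 0.0233 to 0.388 for miR-10a, with 1 setting passing in each case. Leaving out the rigid 4TO7 inhibitor array of set 2 brought the miR-10a difference over all lines to -0.13 (adjusted p = 0.038 in limma).

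The second treatment axis was the rigidity of the microenvironment, and neither member passed there. Over all lines miR-10b had a lowest, median and highest level of 8.61, 8.87 and 9.23 on 12 rigid arrays, against 8.61, 8.89 and 9.49 on 12 compliant arrays. The difference was -0.06 ± 0.046 (95% interval -0.16 to 0.04, adjusted p = 0.386 in limma). MiR-10a had 6.28, 6.49 and 6.72 on rigid arrays, against 6.25, 6.59 and 6.92 on compliant arrays, a difference of -0.05 ± 0.050 (95% interval -0.16 to 0.05, adjusted p = 0.474 in limma). Of all tested probes 21.9% passed.

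By line, the largest rigidity differences of both members were in 67NR, at -0.14 for miR-10b (95% interval -0.30 to 0.03, adjusted p = 0.320 in limma) and -0.12 for miR-10a (adjusted p = 0.442). Without both compliant 67NR arrays of set 1, a choice made after the values were seen, these became 0.01 and -0.005. Those arrays were the highest compliant 67NR arrays for both members, so leaving them out lowers the compliant mean by construction. In 4T1 the difference was -0.02 for miR-10b (adjusted p = 0.929 in limma) and -0.06 for miR-10a (adjusted p = 0.785). In 4TO7 it was -0.02 for miR-10b (adjusted p = 0.946 in limma) and 0.02 for miR-10a (adjusted p = 0.958). The share of tested probes that passed was 7.4% in 4T1, 2.74% in 4TO7 and 11% in 67NR. The F test of whether the rigidity difference varied between lines, passed by 8.22% of probes, gave an adjusted p of 0.793 for miR-10b and 0.816 for miR-10a in limma.

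**Figure D4:**
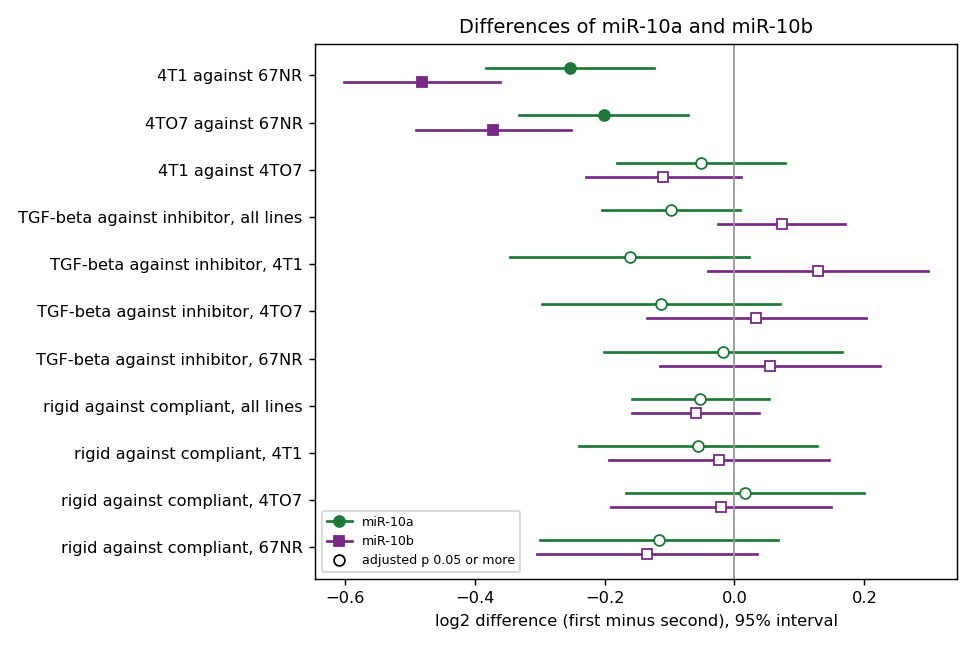
Log2 differences (points) with 95% intervals (lines) of miR-10a (green circles) and miR-10b (purple squares) in 11 comparisons; filled symbols have an adjusted p under 0.05. The differences of 4T1 and 4TO7 from 67NR are filled for both members, and every interval of TGF-beta against inhibitor and of rigid against compliant includes 0.

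Array by array, the correlation of the 2 members was described within each line. Over the 8 arrays of a line, Pearson's r between miR-10a and miR-10b was -0.44 in 4T1 and 0.27 in 4TO7, against 0.84 in 67NR. Spearman's rho was -0.52 in 4T1 and 0.40 in 4TO7, against 0.61 in 67NR, and whether the lines differ in this was not tested. Over all 24 arrays r was 0.67 and rho 0.56, values that include the level differences between lines. The arrays share their normalization and slides, and the 67NR value includes the 2 compliant arrays of set 1, in which both members were highest. These correlations are descriptions of these arrays.

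**Figure D5:**
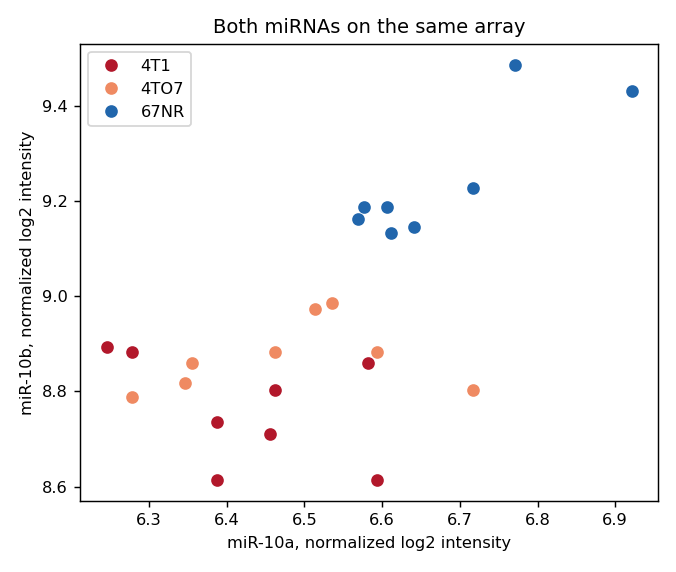
Normalized log2 intensity of miR-10b against that of miR-10a on the same array, 24 arrays coloured by line. The 8 arrays of 67NR lie above the others on the miR-10b axis (9.13 or above), while the lines overlap on the miR-10a axis.

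Other miRNAs of the Hox clusters gave no common direction. This list held miR-196a, miR-196a*, miR-196b, miR-615-3p and miR-615-5p, of which miR-196a was detected on no array and 4 were tested. Between 4T1 and 67NR, miR-196b, of a family known to repress Hox transcripts, was at least 2.13-fold higher (adjusted p = 9.47e-16 in limma), and miR-196a* and miR-615-5p were lower (-0.39 and -0.18). MiR-196b was detected on 8 of 8 arrays of 4T1 and of 4TO7 but on 0 of 8 of 67NR, so its fold is a bound, taken against the lowest normalized level among detected probes on each 67NR array. Between 4TO7 and 67NR it was at least 1.55-fold higher (adjusted p = 1.65e-13 in limma), and miR-196a* and miR-615-5p were again lower (-0.27 and -0.16). Between 4T1 and 4TO7, miR-196b (0.46) and miR-615-3p (0.35) were higher and miR-196a* was lower (-0.12). The list's median difference was 0.0003 between 4T1 and 67NR, beside -0.22 for all tested probes, and -0.16 between 4TO7 and 67NR, beside -0.15, and both medians are the same with miR-196b at its bound. With TGF-beta over all lines miR-615-3p rose by 0.22 and miR-615-5p by 0.11 (adjusted p = 0.0232 and 0.0327 in limma), and no list member passed in a single line. With rigidity over all lines miR-196b fell by 0.12 (adjusted p = 0.0134 in limma), a value that includes the 67NR arrays on which it was not detected.

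The miR-99/100 group, which shares bases with the members, differed from 67NR in the opposite direction in 4T1 and 4TO7. All 3 of its probes were higher in 4T1 than in 67NR, miR-100 by 0.66, miR-99a by 0.43 and miR-99b by 0.24, and all 3 were higher in 4TO7 than in 67NR, by 0.41, 0.52 and 0.75. In these comparisons 112 and 109 of the 365 tested probes passed as higher. The list's medians were 0.43 and 0.52, beside -0.22 and -0.15 for all tested probes. Between 4T1 and 4TO7, 1 of the 3 passed as higher and 2 as lower. Over all lines with TGF-beta miR-100 fell by 0.37 and miR-99a by 0.28 (adjusted p = 5.25e-09 and 2.49e-08 in limma), while miR-99b did not pass (0.05, adjusted p = 0.177). The TGF-beta difference of all 3 varied between lines (adjusted p = 0.0329 for miR-100, 0.00257 for miR-99a and 0.0073 for miR-99b in limma's F test): in 4TO7, miR-99b rose by 0.24. With rigidity over all lines miR-99b rose by 0.13 and miR-99a and miR-100 fell by 0.15 and 0.09.

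Pearson's r was taken with 361 other tested probes, leaving out those whose 12 group means were all equal. It gave the miRNAs whose group means followed those of a member most closely. For miR-10b they were miR-695 (r = 0.985), miR-199b* (r = 0.984) and miR-683 (r = 0.979), each detected on 24 arrays and, like miR-10b, highest in 67NR. The lowest r was that of miR-669a (-0.980), which was detected on 16 arrays: 8 of 8 in 4T1, 8 of 8 in 4TO7 and 0 of 8 in 67NR. For miR-10a they were miR-409-5p (r = 0.901), miR-423-3p (r = 0.859) and miR-200b* (r = 0.855, detected on 8 arrays), and the lowest r was that of miR-21 (-0.889). MiR-200b* averaged 7.55 in 67NR, against 7.33 in 4TO7 and 7.25 in 4T1, whereas its main strand miR-200b was detected in 4T1 alone. What the miR-200b* probe measured was not tested. The members were not each other's closest probes: their r of 0.771 put miR-10b at place 40 for miR-10a and miR-10a at place 160 for miR-10b. With 3 lines of 4 groups each, these values mainly rank how the lines differ. The order depended on the scaling, and with median scaling miR-695 stood at place 26 for miR-10b.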

How the data were processed

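MiRNA was measured in 24 samples on 2-dye arrays. Per the file headers, the authors' deposited intensity is a relative intensity on a linear scale, the DY649-labelled sample over a DY547-labelled synthetic reference, with background subtracted and arrays not normalized to one another. Beside it the deposited files hold a detection p-value, an error and a fail code. The authors' deposited log2 value table (338 probes) equals the log2 of that intensity plus 1 constant per array; the sources used here give no rule for the constants.

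Quantile normalization over the log2 intensities of 558 miRNA probes used limma 3.58.1 under R 4.3.3. A probe was tested if some group had it detected on both arrays and under 12 arrays carried its fail code: 365 passed, both members among them, and 193 did not. A model of 12 group means was fitted with lmFit, and eBayes used a mean-variance trend (12 residual degrees of freedom). Tests were two-sided, with Benjamini-Hochberg adjustment over all tested probes in each of 14 comparisons. The fit was tested on simulated data. Depth on arrays is signal over background, and the number of arrays limits the precision.

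Members and lists were chosen with earlier results of these data known. Named miRNAs were the members, their passenger strands, 2 lists (other Hox cluster miRNAs, miR-99/100) with at most 3 passing probes per comparison, and the 3 probes with the highest and the 1 with the lowest correlation to each member. Set numbers were not taken as pairing, because they are not known to pair samples. The deviations of same-numbered arrays nevertheless correlated above 0.1 in 11 of 18 pairs of groups within a line (median 0.251, range -0.156 to 0.486). Calls that changed with a set block are therefore given with the results. Alternatives covered scaling, the detection filter, set and slide blocks, array weights, within-slide values and leaving out arrays.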

Additional observations from a re-analysis of the deposited data

Results flagged for a closer look

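For miR-10b, 2 arrays stood far from the other arrays of their line and treatment. The compliant 67NR array with TGF-beta of set 1 read 9.49, above the other 3 TGF-beta arrays of 67NR at 9.19 to 9.23. The compliant 67NR array with inhibitor of set 1 read 9.43, above the other 3 inhibitor arrays of 67NR at 9.13 to 9.16. Both arrays were on slide 1, with a percent error of 6.61 and 7.08, and miR-10a was also highest there (6.77 and 6.92). Among 30 sets of arrays looked at, chance gives such a gap in about 1 in 20. The cause was not tested.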

How the results depend on the processing

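The line differences that passed kept their sign and their call under every refit and with each of the 24 arrays left out in turn. With arrays left out, miR-10b ranged from -0.52 to -0.44 between 4T1 and 67NR and from -0.41 to -0.33 between 4TO7 and 67NR. MiR-10a ranged from -0.29 to -0.22 and from -0.25 to -0.16. Over the 10 alternative settings miR-10b ran from -0.55 to -0.40 between 4T1 and 67NR and from -0.37 to -0.27 between 4TO7 and 67NR. For miR-10a these settings gave -0.33 to -0.18 and -0.24 to -0.14. Median scaling gave the most negative value in each case. Single array pairs within a slide gave -0.82 (slide 1) and -0.29 (slide 3) for miR-10b between 4T1 and 67NR, and 0.11 (slide 4, rigid inhibitor) for miR-10a between 4TO7 and 67NR. The miR-10b difference between 4T1 and 4TO7 passed under median scaling (-0.18, adjusted p = 0.000919), median scaling over detected probes (-0.19, 0.00106), the authors' table (-0.11, 0.0309), the replicate block by set (-0.11, 0.0333), the block by set within line (-0.11, 0.0395) and without both compliant 67NR arrays of set 1 (-0.11, 0.0483); with arrays left out it was -0.14 to -0.079, passing without the compliant 4T1 inhibitor array of set 1 (adjusted p = 0.0404).
With TGF-beta over all lines, miR-10a passed under the replicate block by set within line (-0.10, adjusted p = 0.0158; in 4T1 -0.16, 0.0233) and ranged from -0.128 to -0.067 with arrays left out, passing without the rigid 4TO7 inhibitor array of set 2 (adjusted p = 0.038); miR-10b passed in the authors' table (0.10, adjusted p = 0.0261). The replicate block changed no other call of the members; the numbers are not known to pair samples. In 67NR the sign of the TGF-beta difference changed for miR-10a under median scaling over detected probes (0.057), in the authors' table (0.060) and without both arrays (0.011), and for miR-10b under median scaling (-0.016); with arrays left out they ranged from -0.088 to 0.052 and from -0.020 to 0.13. In 4TO7 the TGF-beta difference of miR-10a was -0.37 and -0.008 in rigid pairs within slide 4 that shared their TGF-beta array. The -0.37 pair used the inhibitor array on which miR-10a was not detected. That of miR-10b in 4TO7 was -0.015 to 0.083 with arrays left out. The rigidity difference changed sign for miR-10b in 67NR without both arrays (0.011), for miR-10a in 4TO7 under median scaling over detected probes (-0.029) and the slide block (-0.056), and for miR-10b in 4T1 under median scaling over detected probes (0.0083); within slides miR-10a in 4TO7 was -0.19 and miR-10b in 4T1 -0.25 and 0.15. With arrays left out these ranged from -0.075 to 0.11 (miR-10a, 4TO7), -0.071 to 0.028 (miR-10b, 4TO7) and -0.085 to 0.038 (miR-10b, 4T1). None of these differences passed, and the causes were not tested.
Counts of passing probes that moved by over 1.5 times were TGF-beta in 67NR (40, against 61 in the authors' table, 63 with array weights, 70 with the block by set within line and 25 without both arrays), TGF-beta in 4T1 (116, 50 with the slide block), TGF-beta between lines (53, 81 with the block by set within line), rigidity over all lines (80, 39 with the slide block), in 67NR (40, 24 without both arrays), in 4TO7 (10, 21 under median scaling over detected probes, 18 with the block by set within line) and in 4T1 (27, 12 with the slide block), and rigidity between lines (30, 14 without both arrays). Leaving out 1 array gave 14 to 33 probes for rigidity in 4T1 (lowest without the compliant TGF-beta array of set 2 or the rigid inhibitor array of set 1), 7 to 18 in 4TO7 (highest without either compliant 4T1 inhibitor array) 14 to 38 for rigidity between lines (14 without the rigid 67NR TGF-beta array of set 2) and 0 to 1 for TGF-beta between microenvironments. MiR-10a's nearness to background limits what can be read from it.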
